A study of Homo sapiens with 7 samples.

Results

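The short arm of chromosome 18 carried a block in which called peaks were packed far more densely than on the rest of the chromosome, in input DNA as well as after immunoprecipitation. The block was defined as all peaks of chromosome 18 with a midpoint from 5 to 15 Mb (hg19), a window selected on the number of called peaks per Mb in these same lists, so the density itself is a description and was not tested. It held 16034 of the 148917 peaks of 7 lists, against 375 peaks on the remaining 68.2 Mb of chromosome 18. The cells were HT1080, a human fibrosarcoma line, transfected with siRNA that targets VRK1 (siVRK1) or with non-targeting siRNA (siControl). Fixed and sonicated chromatin was precipitated with antibodies to phosphorylated T120 of histone H2A (pT120), to ubiquitylated K119 of the same histone (ubK119) and to VRK1. Each H2A mark and unprecipitated input DNA were sequenced after either siRNA. The VRK1 antibody was used in siControl cells only, so each condition had 1 library and the loss of VRK1 after siVRK1 is not shown here.

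VRK1 is a nuclear serine/threonine kinase that phosphorylates histones, among them H2A at T120. The neighbouring K119 is ubiquitylated by Polycomb repressive complex 1, a complex known for silencing developmental genes. Input DNA is the reference for both marks: its read number at a place follows the number of DNA copies there and how readily the sequence shears, amplifies and aligns. The lists name no genes, and genes and sequences under these peaks are not analysed here; peaks are given by their position.

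Library totals ran from 20687408 reads (siControl pT120) to 40442635 (siControl ubK119), and the lowest peak height in a list ran from 12 to 18 reads, so peak numbers of different lists are not directly comparable. Ranges in parentheses are 95% intervals that cover counting error alone, because each condition had 1 library. PCR copies were not marked by molecular identifiers, so reads may not be independent and the intervals may be too narrow even for counting error. Without replicates, what is compared is always single libraries, not conditions. Levels are given as RPM, reads scaled to the library total, and 3 reads were worth between 0.0742 and 0.145 RPM by library.

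Every library had the block. It held 2502 of 17980 siControl input peaks (13.9%, 13.4 to 14.4) and 2374 of 21507 siVRK1 input peaks (11.0%, 10.6 to 11.5). Of the VRK1 peaks, 2214 of 17531 lay there (12.6%, 12.1 to 13.1). For pT120 the numbers were 1473 of 6665 in siControl (22.1%, 21.1 to 23.1) and 3194 of 42461 in siVRK1 cells (7.52%, 7.27 to 7.78). For ubK119 they were 3117 of 28955 in siControl (10.8%, 10.4 to 11.1) and 1160 of 13818 in siVRK1 cells (8.39%, 7.94 to 8.87). The siControl pT120 list, with the fewest peaks, thus had the largest share of its peaks in the block. From 94.5% (siVRK1 ubK119) to 98.7% (siControl pT120) of the chromosome 18 peaks of a list were in the block. Peaks there were also longer, with median lengths from 307 to 375 bp by library, against 214 to 249 bp on the other chromosomes.

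The edges were mapped in both inputs in steps of 0.25 Mb, where a bin counted as dense with at least 5 times the mean peak number of the 273 bins of chromosome 18 outside 5 to 15 Mb (0.179 peaks for siControl, 0.172 for siVRK1). The run of bins dense in both inputs, with gaps of at most 1 bin, reached from 5.75 to 14.00 Mb, a length of 8.25 Mb or 33 bins. Mapped on its own, each of the 7 lists began at 5.75 Mb, and the ends lay between 13.75 Mb (siControl pT120) and 14.50 Mb (VRK1). In the siControl input the run opened with a peak at chr18:5969901-5970321 and closed with one at chr18:13884828-13885080. In the siVRK1 input the first was chr18:5968890-5969353 and the last chr18:13926406-13926632. The threshold at 5 Mb lay in a stretch without peaks: the nearest siControl input peak below it was chr18:110442-111677, with a height of 110 reads, and the first inside was the opening peak of the run, with a height of 14 reads. At 15 Mb the nearest siControl input peaks were chr18:14965880-14966081 inside (13 reads high) and chr18:15390380-15390705 outside (14 reads high). In the siVRK1 input these were chr18:14921217-14921504 inside and chr18:15006971-15007171 outside, both 14 reads high.

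**Figure D1:**
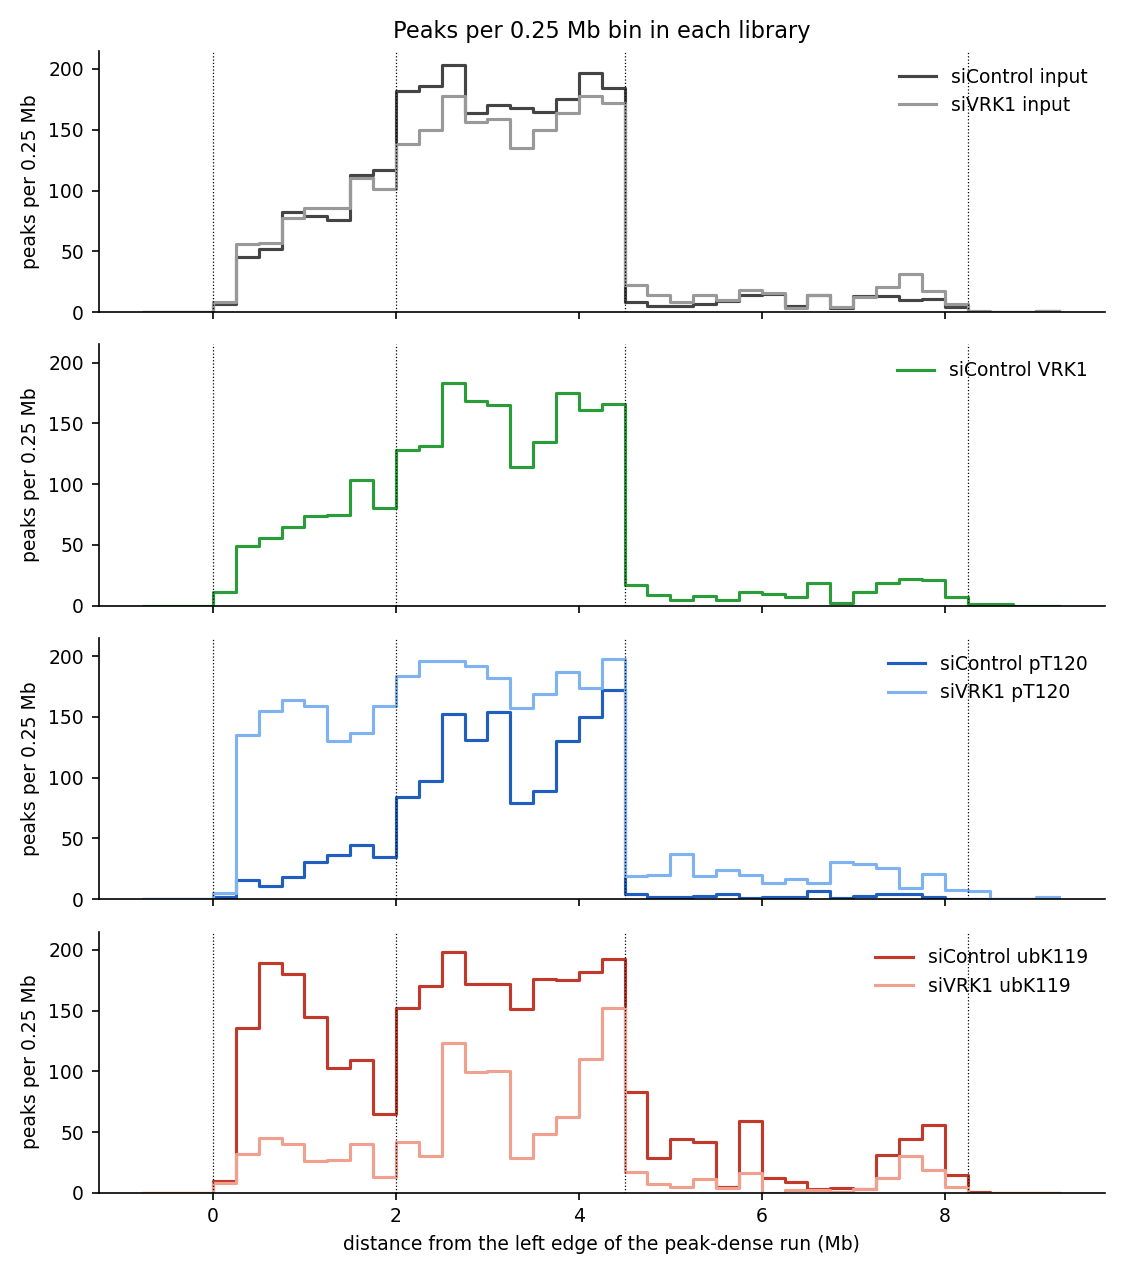
Number of peaks per 0.25 Mb bin in each of the 7 libraries (lines), against the distance in Mb from the left edge of the dense run; dotted lines mark its ends and the borders of its core. The inputs reached 203 (siControl) and 178 (siVRK1) peaks in a core bin, and siControl ubK119 had its left-flank maximum of 189 peaks where the inputs had 52 and 57.

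Within the run, peak density was stepped. The share of bases under a peak was at least 20% in both inputs in 10 successive bins from 7.75 to 10.25 Mb, here called the core (2.50 Mb). The left flank, towards the chromosome end, took 5.75 to 7.75 Mb (2.0 Mb), and the right flank, towards the centromere, 10.25 to 14.00 Mb (3.75 Mb). This split was drawn after the coverage had been seen. Peaks of the siControl input covered 39.4% of the core, 9.40% of the left flank and 0.938% of the right flank. For the siVRK1 input the shares were 40.6%, 10.3% and 1.54%. The core thus held 1794 of the 2502 siControl input peaks of the block, against 571 in the left and 136 in the right flank.

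The antibody libraries followed the same 3 levels with different proportions. VRK1 peaks covered 36.6% of the core, 8.57% of the left flank and 1.21% of the right flank, close to the inputs. For siControl pT120 the shares were 19.3%, 2.63% and 0.257%, and for siVRK1 pT120 they were 52.9%, 19.3% and 2.07%. For siControl ubK119 they were 34.7%, 18.7% and 3.24%, and for siVRK1 ubK119 13.9%, 3.88% and 1.02%. In the left flank peak numbers of input and siControl ubK119 ran in opposite directions: from the bin at 6.25 Mb to the bin at 7.5 Mb the siControl input went from 52 to 117 peaks and the siVRK1 input from 57 to 101, while siControl ubK119 went from 189 to 65. In the same 2 bins siVRK1 pT120 had 155 and 159 peaks.

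The core was bounded most sharply on the right. In 50 kb steps, siControl input peaks covered 43.6% of the bases from 10.20 to 10.25 Mb and 1.89% of those from 10.25 to 10.30 Mb. The siVRK1 input went from 50.4% to 4.88%, VRK1 from 52.3% to 3.44%, siControl pT120 from 26.7% to 1.56% and siVRK1 pT120 from 42.2% to 5.53% across the same border. For siControl ubK119 the drop was from 60.4% to 6.95%, and 10.9% of the next 50 kb was covered. The left border of the core was crossed over 3 steps: the siControl input covered 12.8% from 7.70 to 7.75 Mb, 26.3% from 7.75 to 7.80 Mb and 50.8% from 7.80 to 7.85 Mb. At the outer left edge no library had a peak from 5.90 to 5.95 Mb, and the inputs covered 4.10% and 9.71% of the next 50 kb.

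**Figure D2:**
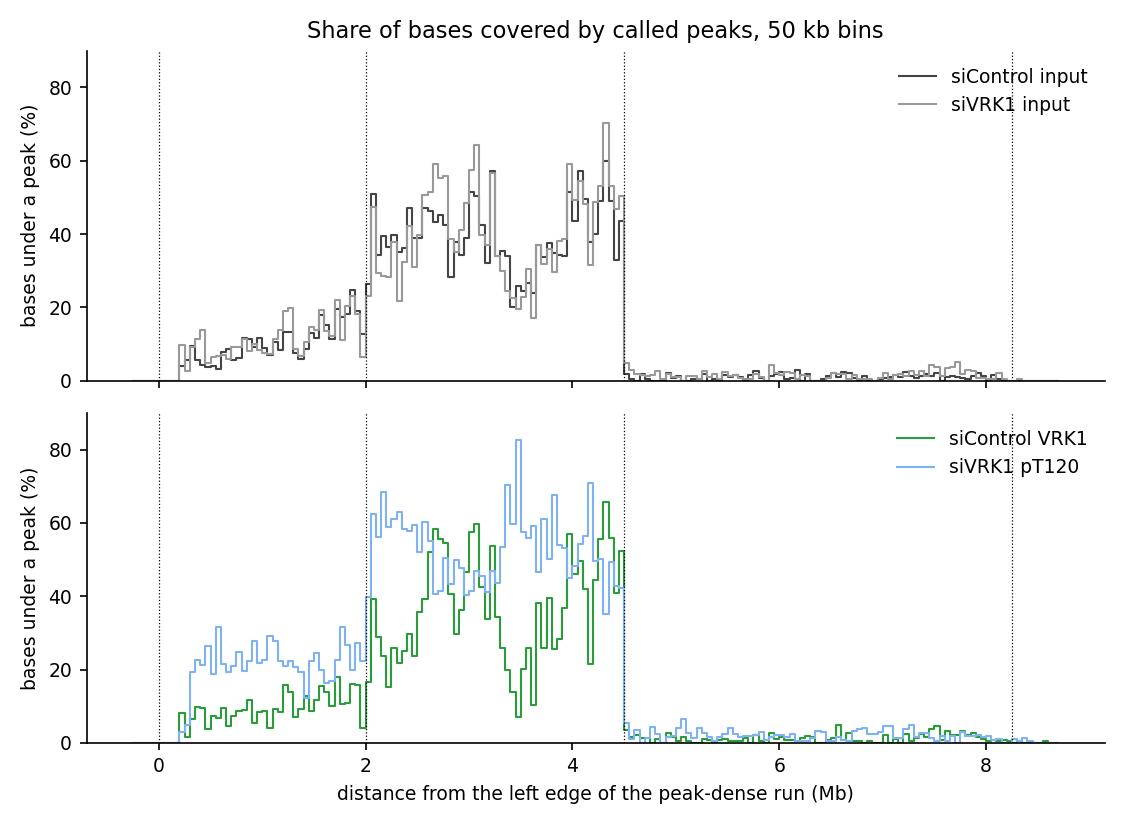
Percent of bases under a called peak in 50 kb bins for both inputs (top) and for VRK1 and siVRK1 pT120 (bottom), against the distance in Mb from the left edge of the dense run; dotted lines mark its ends and the core borders. All 4 libraries went from above 40% to below 6% at the right border of the core.

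The median read level of input DNA, per kb of region, was higher in the core than in the flanks, which partly restates how the core was drawn. In regions called with the VRK1 antibody, the median siControl input level was 1.89 RPM per kb in the core, 1.48 in the left flank and 0.930 in the right flank. The median was 1.0 RPM per kb on the rest of chromosome 18 and 0.930 on the other chromosomes. Summed over regions the order was different, with 1.93 RPM per kb in the core, 31.9 on the rest of chromosome 18 and 3.38 on the other chromosomes. In regions called in siVRK1 pT120, a longer list, the siControl input medians were 1.57, 0.971 and 0.558 RPM per kb for core, left and right flank, against 0.516 on the other chromosomes. By the medians of that list the core stood 3.04 times, the left flank 1.88 times and the right flank 1.08 times above the other chromosomes. These are levels inside called regions, and the level of the bases between peaks is not analysed here. The authors' Mann-Whitney p-value was below 0.05 for 8.23% to 32.8% of the block peaks of a library, against 10.3% to 27.8% on the other chromosomes.

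Antibody and input peaks of the block often overlapped peaks of the inputs. Of the siControl input peaks, 67.6% (65.7 to 69.4) overlapped a siVRK1 input peak by at least 1 bp, against 22.4% (11.8 to 36.6) on the rest of chromosome 18 and 20.7% (20.1 to 21.4) on the other chromosomes. The share of VRK1 peaks over a siControl input peak was 66.9% (64.9 to 68.9) in the block and 26.3% on the rest of chromosome 18. For siControl ubK119 it was 51.3% against 9.21%. For siControl pT120 it was 73.4% (71.1 to 75.6) against 55.0% (31.5 to 76.9) of only 20 peaks, where the intervals overlap, and against 36.2% (34.9 to 37.5) on the other chromosomes. With the siVRK1 input, the share was 48.7% against 8.97% for siVRK1 pT120 and 78.0% against 17.9% for siVRK1 ubK119. Input peaks covered up to 40.6% of the core, and how much of the overlap follows from that coverage was not tested. The overlap was lower where the inputs were thinner: 77.8% of siControl input peaks in the core, 48.0% in the left flank and 15.4% in the right flank met a siVRK1 input peak.

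Of the siControl input peaks of the block, 312 (12.5%, 11.2 to 13.8) met a peak of every other library, against 6.92% (6.53 to 7.33) on the other chromosomes. For siControl pT120 peaks the share went the other way, with 17.2% (15.3 to 19.3) in the block, 23.5% (22.4 to 24.7) on the other chromosomes and 8 of 20 peaks on the rest of chromosome 18. All but 3 of the 312 input peaks lay in the core: it held 309, the left flank 3 and the right flank 0 of 136, which allows a share of up to 2.68% (exact Clopper-Pearson). Antibody peaks of the block that overlapped neither input numbered 409 for VRK1 (18.5% of its block peaks, against 72.3% on the other chromosomes). For pT120 they numbered 172 (11.7%, against 55.5%) in siControl and 1289 (40.4%, against 93.5%) in siVRK1 cells. For ubK119 they numbered 1194 (38.3%, against 87.1%) in siControl and 187 (16.1%, against 76.0%) in siVRK1 cells. In the core the share was 7.80% of VRK1, 14.1% of siVRK1 pT120 and 15.2% of siControl ubK119 peaks. In the right flank it was 82.7%, 97.7% and 90.7%, nearer to the shares on the other chromosomes.

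Antibody reads were then compared with input reads of the same siRNA in regions called in a library outside the comparison: regions of the VRK1 list for both marks and of the siControl ubK119 list for VRK1. In the block, VRK1 gave 2026 RPM and input 2115 RPM over 3117 regions, a ratio of 0.958 (0.947 to 0.969). Over 2214 regions, siControl pT120 stood at 1.03 (1.02 to 1.04) times input and siVRK1 pT120 at 0.589 (0.582 to 0.596) times. The values were 0.769 (0.760 to 0.778) for ubK119 in siControl and 0.996 (0.985 to 1.01) in siVRK1 cells. In these regions VRK1, siControl pT120 and siVRK1 ubK119 were within 5% of input, and siVRK1 pT120 and siControl ubK119 were below it. Outside input peaks, a choice that keeps regions of low input and so raises the ratio, siControl pT120 was at 1.26 (1.20 to 1.32), siControl ubK119 at 1.03 (0.986 to 1.08), siVRK1 ubK119 at 1.20 (1.16 to 1.26) and siVRK1 pT120 at 0.739 (0.706 to 0.773). The distance from input depended on the list. In block regions called in siControl ubK119, siControl pT120 had 1988 RPM against 2115 RPM of input. The siVRK1 libraries had 1784 RPM of pT120 against 2090 RPM of input there. In block regions called in siVRK1 pT120, VRK1 had 2191 RPM against 2480 RPM of input. There ubK119 was below input under both siRNAs, with 2312 against 2480 RPM (siControl) and 2000 against 2311 RPM (siVRK1).

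On the rest of chromosome 18 the ratios were 0.902 (0.884 to 0.920) for VRK1. For pT120 they were 0.886 (0.866 to 0.906) in siControl and 0.820 (0.804 to 0.836) in siVRK1 cells, and for ubK119 0.692 (0.679 to 0.706) and 0.919 (0.901 to 0.937). That comparison rests on very few regions. Of its 38 VRK1 regions, 6 had more than 100 reads in an input and held 98.6% of the siControl input reads. The highest, chr18:18515383-18520553, alone had 10811 siControl input reads. In the block, 111 of 2214 regions passed 100 reads. Limited to regions of at most 100 reads per input, the ratios in the block and on the rest of chromosome 18 were 0.949 and 1.19 (1.03 to 1.37) for VRK1, and 1.03 and 0.891 (0.734 to 1.08) for siControl pT120. They were 0.624 and 0.359 (0.291 to 0.439) for siVRK1 pT120, 0.779 and 0.740 (0.625 to 0.876) for siControl ubK119, and 0.993 and 1.34 (1.16 to 1.55) for the siVRK1 library of that mark. The order of block and rest of chromosome turned for VRK1, siVRK1 pT120 and siVRK1 ubK119 under this limit, and held for siControl pT120 and siControl ubK119, with overlapping intervals.

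**Figure D3:**
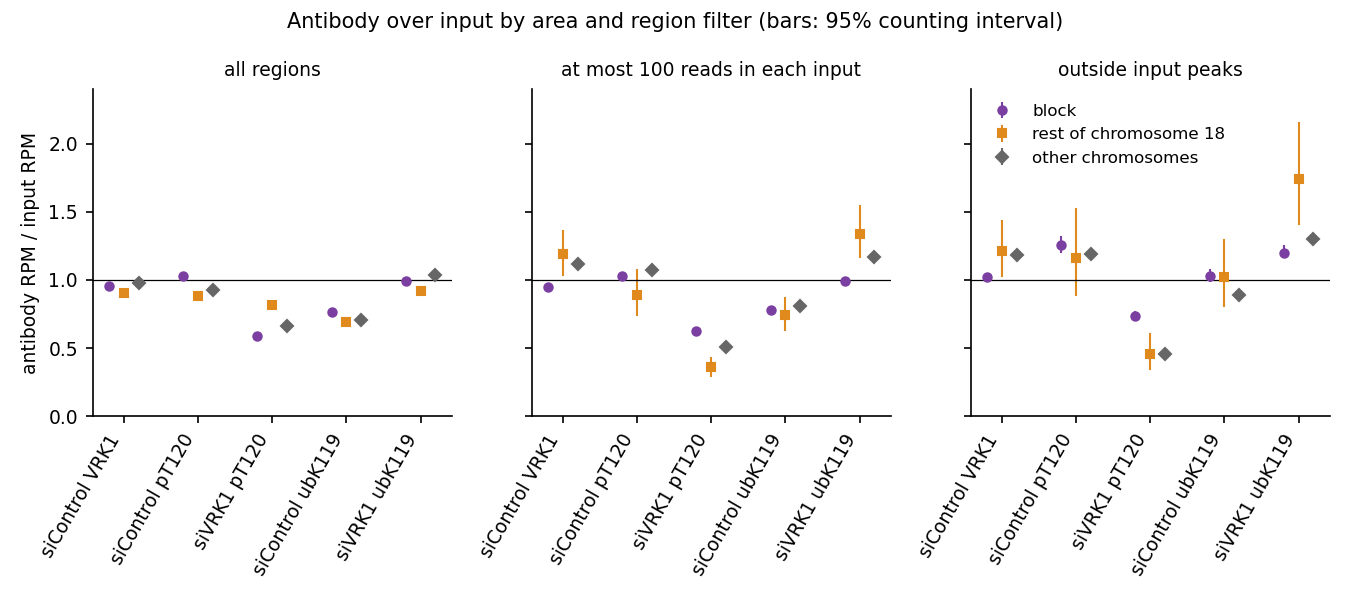
Ratio of antibody to input RPM for the 5 antibody libraries in the block, on the rest of chromosome 18 and on the other chromosomes (points; bars are 95% counting intervals), for all regions, for those with at most 100 reads per input and for those outside input peaks. In the block siVRK1 pT120 lay at 0.589, 0.624 and 0.739, the lowest of the 5 libraries in each panel.

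On the other chromosomes, with the same limit of 100 reads, the ratios were 1.12 for VRK1, 1.07 for siControl pT120, 0.506 for siVRK1 pT120, and 0.813 and 1.17 for ubK119 in siControl and siVRK1 cells. Under this limit the block was lower for VRK1 (0.949), siControl pT120 (1.03), siControl ubK119 (0.779) and siVRK1 ubK119 (0.993) and higher for siVRK1 pT120 (0.624), with intervals that did not overlap. Over all regions the order turned for siControl pT120 (1.03 in the block, 0.925 on the other chromosomes), siVRK1 pT120 (0.589 and 0.660) and siControl ubK119 (0.769 and 0.707). Counted region by region, among regions with at least 20 reads in the pair, VRK1 was at least 1.5-fold above input in 226 of 2122 block regions (10.7%), against 20.8% of all regions of the genome so counted, and at least 1.5-fold below in 387 (18.2%), against 13.3%. For siControl pT120, 249 of 1605 block regions (15.5%) were above and 227 (14.1%) below, against 16.8% and 16.6%, which is near the background. The background includes the block regions, here 1605 of 4656. For siVRK1 pT120, 76 of 1824 (4.17%) were above and 1031 (56.5%) below, against 5.10% and 63.0%. For siControl ubK119, 118 of 1835 (6.43%) were above and 713 (38.9%) below, against 12.7% and 39.1%. For siVRK1 ubK119, 251 of 1888 (13.3%) were above and 319 (16.9%) below, against 26.1% and 11.7%.

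The ratio to input varied along the run. For VRK1 the core bins ranged from 0.804 (bin at 8.0 Mb) to 1.05 (bin at 8.5 Mb). For siControl pT120 they ranged from 0.891 to 1.09, and for siControl ubK119 from 0.624 (bin at 7.75 Mb) to 0.913 (bin at 10.00 Mb). In the left flank siControl ubK119 went from 1.27 in the first bin to 0.620 in the last, the bin at 7.5 Mb, and siVRK1 ubK119 from 1.81 to 0.842. Over the 17 bins of left flank and core with at least 20 regions, the ratios of ubK119 to input under the 2 siRNAs had a Pearson correlation of 0.963 and a Spearman correlation of 0.936. The corresponding values for pT120 were -0.222 and -0.203. These bins share libraries and neighbour each other, so the correlations describe the profile only.

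**Figure D4:**
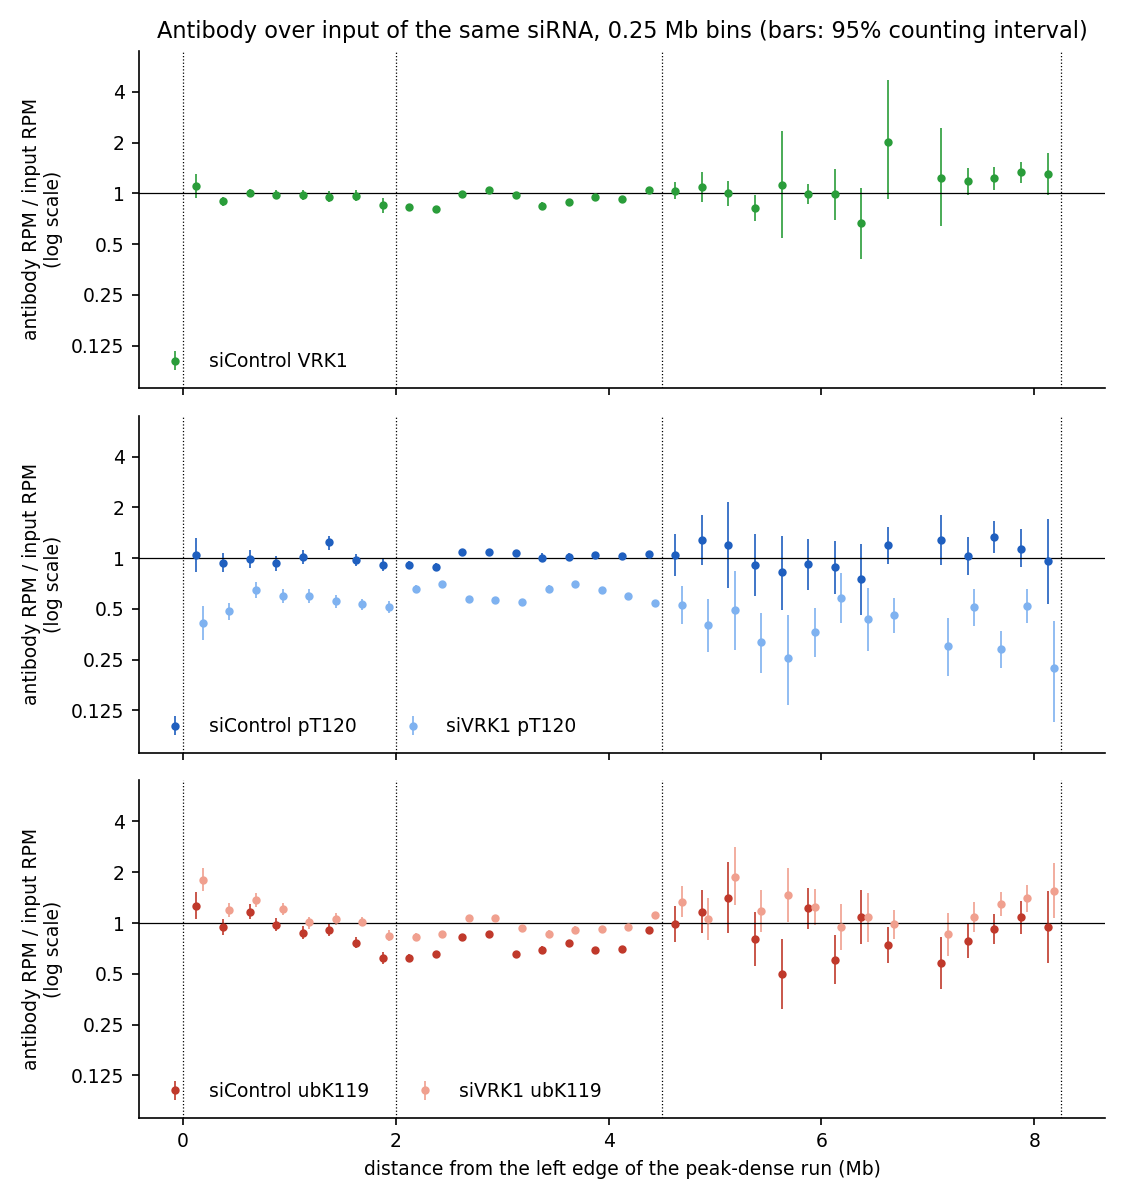
Ratio of antibody to input RPM (log scale) per 0.25 Mb bin of the dense run for VRK1, pT120 and ubK119 (points; bars are 95% counting intervals), in bins with at least 5 VRK1 regions; dotted lines mark the run and its core. siVRK1 pT120 was below 1 in every bin shown, and ubK119 under both siRNAs had its lowest left-flank value in the last bin before the core.

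The siRNA comparison asks how the marks differed between siVRK1 and siControl cells in the block. In the 2214 regions called with the VRK1 antibody, summed pT120 levels were 2126 (siControl) and 1287 RPM (siVRK1), which gives a ratio of 0.605 (0.597 to 0.613). For ubK119 the levels were 1584 and 2176 RPM and the ratio 1.37 (1.36 to 1.39). Input levels were 2060 and 2185 RPM, with a ratio of 1.06 (1.05 to 1.07). Relative to input, the ratio was 0.571 for pT120 and 1.30 for ubK119. By these regions pT120 was lower and ubK119 higher in the siVRK1 libraries. The numbers of called peaks in the block went the other way. There were 1473 (siControl) and 3194 (siVRK1) pT120 peaks, and 3117 and 1160 ubK119 peaks. Peak numbers of different lists are not directly comparable, and the reason for the opposite directions was not tested.

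The read ratios depended on which list supplied the regions. In block regions called in siControl ubK119 the pT120 ratio was 0.897 (0.886 to 0.908), and in those called in siVRK1 ubK119 it was 0.505 (0.494 to 0.515). The ubK119 ratio was 1.46 (1.44 to 1.49) in regions called in siControl pT120, and 0.865 (0.856 to 0.874), below 1, in those called in siVRK1 pT120. On the other chromosomes the latter ratio was 1.06 (1.05 to 1.06). The input ratio itself ran from 0.932 (0.922 to 0.942) in siVRK1 pT120 regions to 1.12 (1.10 to 1.13) in siVRK1 ubK119 regions. Summed over the block, the pT120 ratio was below 1 in each list used here, whereas the direction for ubK119 turned with the list. In the left flank alone pT120 also turned, to 1.04 (1.01 to 1.07) in the 937 regions called in siControl ubK119.

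In VRK1 regions the ratios of left flank and core had overlapping intervals, and the right flank lay farther from 1. For pT120 the ratio was 0.597 (0.574 to 0.620) in the left flank, 0.610 (0.602 to 0.619) in the core and 0.471 (0.429 to 0.517) in the right flank. For ubK119 it was 1.36 (1.32 to 1.40), 1.37 (1.35 to 1.38) and 1.62 (1.52 to 1.73). The input ratio was also highest in the right flank, at 1.22 (1.13 to 1.31), against 1.08 in the left flank and 1.05 in the core. Relative to input, the ubK119 ratio was 1.25 in the left flank, 1.30 in the core and 1.33 in the right flank. For pT120 it was 0.551, 0.579 and 0.386. In VRK1 regions set against input, the right flank thus stood apart for pT120 and little for ubK119. Of its 173 regions, 143 lay outside input peaks. Its 0.386 was near the 0.381 of VRK1 regions outside input peaks on the other chromosomes. Not set against input, the pT120 ratio in siControl ubK119 regions was 0.856 (0.808 to 0.906) in the right flank and 0.862 (0.850 to 0.875) in the core. In siVRK1 ubK119 regions it was 0.419 (0.378 to 0.465) and 0.503 (0.491 to 0.514). By bin, pT120 was below 1 in 8 of 8 left-flank, 10 of 10 core and 14 of 14 right-flank bins with at least 5 regions, and ubK119 was above 1 in all of them. Some right-flank intervals included 1, such as 0.693 (0.411 to 1.18) for pT120 and 1.06 (0.812 to 1.39) for ubK119. The right-flank bin left out, with 2 regions, had 1.08 (0.428 to 2.93) for pT120 and 0.781 (0.336 to 1.73) for ubK119. All bins come from the same libraries and are not replicates. The summed ratios on the other chromosomes had the same directions, 0.711 for pT120 and 1.47 for ubK119. The core bins ranged from 0.536 to 0.743 for pT120 and from 1.24 to 1.51 for ubK119. Over the 17 bins with at least 20 regions in the left flank and core, bins with a lower pT120 ratio tended to have a higher ubK119 ratio (Pearson correlation -0.753, Spearman -0.699). These bins share libraries and neighbour each other, so the correlations describe the profile in VRK1 regions only.

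**Figure D5:**
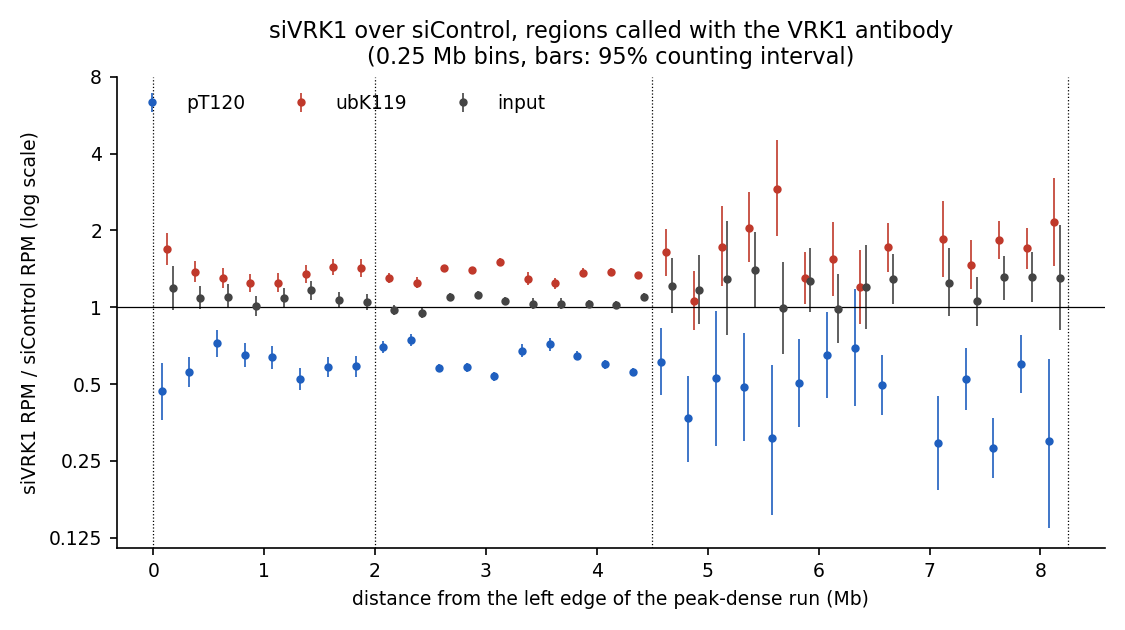
Ratio of siVRK1 to siControl RPM (log scale) for pT120, ubK119 and input in VRK1 regions, per 0.25 Mb bin of the dense run with at least 5 regions (points; bars are 95% counting intervals). In the core pT120 lay between 0.536 and 0.743, input between 0.947 and 1.12 and ubK119 between 1.24 and 1.51.

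Set beside the rest of the genome, the block did not stand in one fixed order for pT120. In all VRK1 regions the pT120 ratio of 0.605 in the block compared with 0.711 (0.707 to 0.714) on the other chromosomes and 0.865 (0.846 to 0.884) on the rest of chromosome 18. With at most 100 reads in each input it was 0.633 (0.624 to 0.643) in the block, 0.537 (0.533 to 0.542) on the other chromosomes and 0.420 (0.334 to 0.528) on the rest of chromosome 18. For ubK119 the block was below the other chromosomes in VRK1 regions both ways: 1.37 against 1.47 (1.47 to 1.48), and 1.33 (1.31 to 1.35) against 1.64 (1.63 to 1.65) under the limit. Outside input peaks the ubK119 ratios were 1.29 (1.24 to 1.35) and 1.74 (1.72 to 1.76). In siControl pT120 regions the order was the other way round, with 1.46 in the block and 1.41 (1.40 to 1.41) elsewhere.

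Region by region, pT120 was at least 1.5-fold lower after siVRK1 in 841 of 1546 VRK1 regions of the block with at least 20 reads in the pair (54.4%), against 50.6% over the genome, and at least 1.5-fold higher in 81 (5.24%), against 5.95%. Both shares are near the background, which includes the block itself with 1546 of its 3984 regions. For ubK119, 717 of 1874 regions (38.3%) were higher, against 53.5%, and 150 (8.0%) lower, against 5.83%. For input, 260 of 1864 (13.9%) were higher, against 21.7%, and 187 (10.0%) lower, against 9.50%. A larger share of block regions than of all regions thus had a ratio within 1.5-fold, for ubK119 and for input alike. Block regions also held more reads: the median over all VRK1 regions was 20 siControl ubK119 reads, against 7 on the other chromosomes. How far read number sets these shares was not tested.

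Of the regions called in all 7 libraries, the one with the greatest VRK1 height was chr18:9057654-9058467. It had 2.34 and 2.80 RPM in the siControl and siVRK1 inputs and 2.62 RPM for VRK1. Its pT120 went from 2.27 to 0.777 RPM after siVRK1 (ratio 0.342, 0.206 to 0.558), and its ubK119 from 1.36 to 2.70 RPM (1.99, 1.39 to 2.85). The next, chr18:9539460-9540996, had 2.97 and 4.21 RPM in the inputs and 4.78 RPM for VRK1. There pT120 went from 3.92 to 1.30 RPM (0.333, 0.227 to 0.483) and ubK119 from 1.78 to 3.57 RPM (2.01, 1.47 to 2.74). At chr18:10149881-10151150, pT120 went from 3.82 to 1.11 RPM and ubK119 from 1.88 to 3.97 RPM. In these 3 regions both marks differed between siRNAs beyond counting error, in opposite directions.

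The highest siControl input peaks lay close together, at chr18:9828910-9829863, chr18:9808272-9809379 and chr18:9836529-9837220, with heights of 38, 34 and 33 reads. The first had 3.68 and 2.19 RPM in the siControl and siVRK1 inputs. Its pT120 had a siVRK1 to siControl ratio of 0.501 (0.307 to 0.814) and its ubK119 one of 0.777 (0.494 to 1.21), which includes 1, although it was called in all 7 libraries. As these peaks were ranked on the siControl input, ratios of siControl antibodies to that input are not given for them. Of the highest siVRK1 input peaks, chr18:9057723-9058495 and chr18:10149757-10151196 overlap regions already described, and chr18:8801433-8801954 had 1.60 (siControl) and 1.5 RPM (siVRK1) of input DNA.

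Antibody peaks outside both inputs were ranked by height, so their own antibody's level is a description. The highest siVRK1 pT120 peaks included chr18:9207086-9210276, which is 3190 bp long and had 5.77 RPM of siVRK1 pT120 against 2.32 RPM in its input (2.49 times) and 2.18 RPM of siControl pT120. At this region ubK119, which played no part in the ranking, went from 3.51 to 1.17 RPM after siVRK1 (0.333, 0.223 to 0.484). At chr18:10126235-10126801 siVRK1 pT120 was 1.30 RPM against 0.301 RPM in its input, and ubK119 went from 0.841 to 0.10 RPM, the latter being 3 reads (0.119, 0.0234 to 0.379). The other of the 3, chr18:8676465-8676989, had a ubK119 ratio of 0.562, with an interval from 0.286 to 1.05 that includes 1. All 3 were also called in siControl ubK119 and in no other library.

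Of the 3 peaks ranked on siVRK1 ubK119, 1 had a pT120 interval below 1. At chr18:11430143-11430633, in the right flank, siVRK1 ubK119 was 1.67 RPM against 0.371 RPM in siControl cells, and pT120 went from 0.435 to 0.0555 RPM, which is 9 and 2 reads (0.128, 0.0134 to 0.616). At chr18:6376733-6377079 and chr18:6239718-6240106 the pT120 ratios were 1.39 (0.550 to 3.98) and 1.23 (0.472 to 3.57), with intervals that include 1. Among peaks ranked on siControl pT120, chr18:6041114-6041478 had pT120 levels of 0.967 RPM (siControl) and 0.194 RPM (siVRK1), and its ubK119 went from 0.297 to 1.20 RPM (4.05, 2.06 to 8.54). The other peaks of that list, chr18:6956341-6956724 and chr18:9752467-9752816, had ubK119 ratios of 1.17 (0.512 to 2.63) and 2.02 (0.981 to 4.30).

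The highest VRK1 peak outside the inputs was chr18:6256740-6257477 in the left flank, with 1.69 RPM of VRK1 against 0.632 RPM in its input (2.67 times). Its ubK119 level was 1.19 RPM (siControl) and 1.60 RPM (siVRK1), at 1.88 (1.06 to 3.48) and 2.42 (1.43 to 4.21) times input. The peak was kept for lying outside input peaks, a choice that raises its ratios to input. Its siControl pT120 was 0.918 RPM, or 1.45 times input with an interval from 0.715 to 2.98. The next VRK1 peaks, chr18:8584777-8585221 and chr18:6376865-6377186, had VRK1 at 1.63 and 1.44 times input. These VRK1 ratios only describe the peaks, which were ranked on VRK1 height and kept for lying outside input peaks. Of the highest siControl ubK119 peaks, chr18:6480411-6481192 had 1.53 RPM of ubK119 that became 0.300 RPM after siVRK1, and its pT120 ratio of 1.56 had an interval from 0.627 to 4.39. The others, chr18:6555031-6555547 and chr18:8485544-8485998, had pT120 ratios of 1.36 (0.570 to 3.60) and 0.789 (0.396 to 1.61).

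Dense bins of this kind were rare elsewhere. Of 12323 bins of 0.25 Mb in the genome, 29 had at least 40 peaks in both inputs, and 17 of these were in the block. The other 12 were spread over 8 chromosomes with at most 2 on each. At a limit of 20 peaks there were 75 bins, of which 17 were in the block and 11 each on chromosomes 3 and 5. In VRK1 regions of these bins the median siControl input level was 1.79 RPM per kb on chromosome 18, 1.20 on chromosome 3 and 1.08 on chromosome 5. The siControl ratio of pT120 to input was 1.03 (1.02 to 1.04), 0.996 (0.937 to 1.06) and 0.997 (0.938 to 1.06). For siControl ubK119 it was 0.764 (0.755 to 0.773) on chromosome 18, above 0.667 (0.630 to 0.707) and 0.673 (0.637 to 0.712). The siVRK1 to siControl ratio of pT120 was 0.609 (0.601 to 0.617) on chromosome 18, 0.571 (0.534 to 0.610) on chromosome 3 and 0.477 (0.445 to 0.510) on chromosome 5. For ubK119 the ratio was 1.37 (1.35 to 1.38) on chromosome 18, below 1.60 (1.52 to 1.70) and 1.71 (1.62 to 1.81).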

How the data were processed

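The 7 deposited peak lists, 1 per library, were used as given. CASAVA 1.8.2, Bowtie 0.12.8, Partek and the build hg19 are listed in the submitters' processing notes, without settings. Per the file headers, each list holds peak positions, peak length in bp (other), peak height as a signal (the most extended reads in a window), the same height as RPM, a Mann-Whitney p-value, the percent of each region covered by other lists, and the raw read count of all 7 libraries in each region. No source states whether positions start at 0 or 1. Column names also carry a tag after the build name and a numbered code, which differs between the siRNAs for each mark. The names do not say what the tag and the code stand for. Amplification by 20 PCR cycles, per the labels' protocols, can copy some fragments more than others. Library totals were height divided by RPM. Sums of counts were divided by these totals; ratios have exact conditional binomial intervals and shares exact Clopper-Pearson intervals, while ratios between areas have approximate ones on the log scale. Python 3.11.15, pandas 2.3.3 and scipy 1.17.1 were used, and the calculations were tested on simulated data. Named peaks were the 3 highest by RPM of each antibody library outside input peaks, the 3 highest of each input, the 3 regions called in all 7 libraries with the greatest VRK1 height, and the peaks at the edges and thresholds; the highest region on the rest of chromosome 18 was added after its values were seen. The block and all rules were chosen with earlier results of these data known. The segments, the 1.5-fold counts, the dense bins of other chromosomes and the regions of the H2A lists were chosen after seeing the data. No p-value was computed, as there was 1 library per condition.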

Additional observations from a re-analysis of the deposited data

How the results depend on the processing

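No paired analysis was possible because each condition had 1 library and no result came from a test. Bins of 0.5 Mb put the left edge at 5.5 Mb. With a height of at least 18 reads, the block held 549 siControl input, 1112 siVRK1 input, 917 VRK1, 163 siControl pT120, 770 siVRK1 pT120 and 1522 siControl ubK119 peaks. This limit is in reads and is a higher RPM in a smaller library, so these numbers are not comparable between libraries. When 50% of a peak had to be covered, overlap with input was 52.3% for VRK1, 59.1% and 24.6% for siControl and siVRK1 pT120, and 34.7% and 69.7% for siControl and siVRK1 ubK119. In the order VRK1, siControl pT120, siVRK1 pT120, siControl ubK119, siVRK1 ubK119, the block's ratio to input in regions of either input was 0.913, 0.909, 0.627, 0.722 and 0.903, and outside input peaks 1.02, 1.26, 0.739, 1.03 and 1.20. In regions of either input siControl pT120 was thus below 1. Outside input peaks the intervals of VRK1 (0.989 to 1.04) and siControl ubK119 (0.986 to 1.08) included 1. Input reads decide both filters: regions of either input were called for high input, which lowers the ratio, and regions outside input peaks were kept for low input, which raises it. With both inputs pooled, siControl pT120 was 0.999, siVRK1 pT120 0.605, siControl ubK119 0.744 and siVRK1 ubK119 1.02; with at most 100 reads in each input, siVRK1 pT120 was 0.624 and siControl ubK119 0.779.

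The block relative to the rest of chromosome 18, in the same order, was 1.06, 1.16, 0.719, 1.11 and 1.08 in all regions, 1.03, 1.04, 0.782, 1.06 and 0.999 in input regions, and 0.838, 1.08, 1.61, 1.01 and 0.693 outside input peaks. Outside input peaks, the rest of chromosome 18 had only 26 VRK1 regions and 67 siControl ubK119 regions. There the intervals of siControl pT120 (0.824 to 1.41) and siControl ubK119 (0.798 to 1.29) included 1, and that of siVRK1 pT120 was 1.21 to 2.15. With at most 100 reads the value was 0.800 for VRK1, 1.15 (0.954 to 1.39) for siControl pT120 and 1.74 for siVRK1 pT120. For ubK119 it was 1.05 (0.892 to 1.24) in siControl and 0.741 in siVRK1 cells. The direction turned for VRK1, siVRK1 pT120 and siVRK1 ubK119; the limit of 100 reads removes the 6 regions that held 98.6% of the siControl input reads there.

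The siVRK1 to siControl ratio in the block for pT120, ubK119 and input was 0.697, 1.26 and 1.01 in input regions, 0.652, 1.29 and 1.11 outside input peaks, and 0.633, 1.33 and 1.04 with at most 100 reads. In the left flank it was 0.597, 1.36 and 1.08, and in the right flank 0.471, 1.62 and 1.22. Other lists gave 0.897 (siControl ubK119 regions) and 0.505 (siVRK1 ubK119 regions) for pT120, and 1.46 (siControl pT120 regions) and 0.865 (siVRK1 pT120 regions) for ubK119. For input they gave 1.08 and 0.932 in siControl and siVRK1 pT120 regions and 0.988 and 1.12 in siControl and siVRK1 ubK119 regions. Over the whole block ubK119 and input changed direction; in the left flank pT120 did too, at 1.04 (1.01 to 1.07) in siControl ubK119 regions. The cause was not tested. Without replicates, depth limits single regions most: at 20 reads in a pair, intervals span several-fold.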
